A study of Mus musculus with 6 samples.

Results

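The genes described here encode the proteins of the cytosolic ribosome. They were chosen by symbol alone: every gene named Rpl or Rps with a number, together with Rpsa, Rplp0, Rplp1 and Rplp2, and without pseudogenes and the Rps6k kinases. The rule found 84 genes with 174 probes, among 20660 named genes and 55681 probes on the arrays, and 5 symbols were left out as pseudogenes in RefSeq, Rps4l among them. All 84 were named through the RefSeq accession that the array design gives for the probe. Some proteins of the same particle, such as those of Fau, Rpl36al and Rack1, have genes under other names and were set apart for that reason.

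A cytosolic ribosome is built from a small and a large subunit. The small subunit reads the mRNA, the large subunit forms the peptide bond, and the acidic proteins Rplp0, Rplp1 and Rplp2 form the stalk that recruits elongation factors. Most messages for these proteins begin with a pyrimidine tract at their 5′ end, which lets mTOR signalling control their translation together through Larp1. In blood, single missing copies of several of the genes cause Diamond-Blackfan anaemia in humans, and adult haematopoietic stem cells are known for a low rate of protein synthesis.

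RNA came from 6 sorted populations of E18.5 fetal liver (embryonic day as labelled), each measured once on a 1-colour array. Wild type littermates and Satb1-null embryos, both with strain background C57BL6/J, each gave 3 populations. Satb1 is a chromatin-organising nuclear protein, and the study asked which genes depend on it in these cells. HSC-enriched cells were lineage-negative, high in c-kit, positive for Sca-1 and without Flt3; LMPP-enriched cells (lymphoid-primed multipotent progenitors) shared these markers but carried Flt3. CLP-enriched cells (common lymphoid progenitors) were lineage-negative, low in c-kit and Sca-1 and positive for IL7Rα. How many embryos gave each RNA is not stated. With 1 array per group, a difference between 2 arrays has no replicate check. Differences between populations were therefore also fitted over all 6 arrays in an additive model of genotype and population, so that each population has 1 array per genotype and 2 residual degrees of freedom remain.

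A level below is the log2 processed intensity of a gene's brightest probe minus the 75th percentile of its array, so a value of 0 is the brightness of the probe at that percentile. Between 52.4% and 57.7% of spots were well above background, and no spot was saturated. The Satb1 probe read -0.03 (HSC), 1.996 (LMPP) and 0.71 (CLP) on the wild type arrays and -0.59, 1.96 and 0.65 on the null-labelled ones. Whether it lies inside the deleted part of the gene is not stated, so it does not check the labels. Il7r was highest in CLP (1.61 and 1.55) and Flt3 in LMPP (3.22 and 3.32). All wild type arrays lay in slide row 1 and all null-labelled arrays in slide row 2. Xist, which coats the inactive X chromosome, was well above background on the 3 null-labelled arrays only (4.18 to 4.74), and the Y-linked Ddx3y was lower on them (-2.44 to -1.60) than on the wild type arrays (-0.63 to 0.44). Genotype, slide row and this sex-linked signal cannot be told apart.

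The start regions of the genes with the largest differences show how varied these promoters are. RefSeq promoter sequences on build GRCm38.p6 were at hand for 64 of the 84 genes. The windows below run from 30 bases before to 29 bases after the annotated start, which is base 31, on the transcribed strand. Capitals mark runs of 8 or more C or T. Where RefSeq gives several starts, the most upstream one is shown. Rps19, Rps27, Rps27l, Rpl19 and Rpl37a had the 5 largest differences between LMPP and HSC, and Rpl26 and Rps7 were among the 3 lowest in CLP against LMPP.
Rps19, chr7:24884562-24884621, + strand: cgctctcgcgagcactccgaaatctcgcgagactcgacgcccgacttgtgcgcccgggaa
Rps27, chr3:90213619-90213678, - strand: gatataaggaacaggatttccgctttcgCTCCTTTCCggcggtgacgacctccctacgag
Rps27l, chr9:66946056-66946115, + strand: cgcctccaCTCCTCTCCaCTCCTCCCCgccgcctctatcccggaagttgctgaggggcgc
Rpl19, chr11:98026680-98026739, + strand: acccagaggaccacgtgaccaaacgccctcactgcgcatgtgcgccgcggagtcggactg
Rpl37a, chr1:72711230-72711289, + strand: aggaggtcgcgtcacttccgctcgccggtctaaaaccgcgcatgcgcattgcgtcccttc
Rpl26, chr11:68901536-68901595, + strand: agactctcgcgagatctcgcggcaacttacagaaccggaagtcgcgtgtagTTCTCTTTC
Rps7, chr12:28635924-28635983, - strand: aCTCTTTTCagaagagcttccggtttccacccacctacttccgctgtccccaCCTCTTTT

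A second set shows Rps24, whose probes are described further on, and the X-linked Rpl39 beside 3 relatives of ordinary ribosomal protein genes that were at or near background.
Rps24, chr14:24490648-24490707, + strand: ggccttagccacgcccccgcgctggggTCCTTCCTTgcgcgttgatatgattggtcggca
Rpl39, chrX:37085193-37085252, - strand: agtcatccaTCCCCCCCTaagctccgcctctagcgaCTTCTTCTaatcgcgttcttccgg
Rpl39l, chr16:10170198-10170257, + strand: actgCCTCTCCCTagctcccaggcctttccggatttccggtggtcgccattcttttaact
Rpl10l, chr12:66284372-66284431, - strand: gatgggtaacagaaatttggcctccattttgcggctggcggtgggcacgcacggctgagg
Rpl3l, chr17:24727796-24727855, + strand: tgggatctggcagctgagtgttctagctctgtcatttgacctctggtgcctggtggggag

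In the Rps27 and Rps24 windows the run spans the annotated start, in Rpl26 it lies 21 bases downstream, and the windows shown for Rps19, Rpl19, Rpl37a, Rpl10l and Rpl3l hold none. A second annotated start of Rpl19, not shown, has 1 run in its window. Over the 64 genes, 56.2% had such a run on the transcribed strand within 30 bases of a start, against 25.8% of all 27025 genes in the table. The letters CTTTC or CTTTT stood there in 42.2% of the ribosomal protein genes and 15.5% of all genes; these letters can lie inside a run. CCGGAAG, the core bound by ETS factors such as Gabpa, stood on either strand of the 300-base promoters in 40.6% against 9.93%, and AAGATGGCG, the core of the YY1 motif, in 6.25% against 1.64%. TATAAA within the 50 bases before the start was in 1.56% and 3.15%. A match is a stretch of letters and no measured binding.

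Of the 84 genes, 82 were well above background on at least 3 arrays and were tested among 13016 genes, 50 of the large and 32 of the small subunit. Nearly all are bright: the median level over the 82 genes was 6.27 (HSC), 6.80 (LMPP) and 6.41 (CLP) on the wild type arrays and 6.31, 6.76 and 6.10 on the null-labelled ones. Both LMPP arrays were the high ones and the null CLP array was the lowest. Expressed as the distance of each gene from its own mean over the 6 arrays, the median was 0.34 and 0.30 on the wild type and null LMPP arrays, against 0.07 and 0.04 for all genes tested. The null CLP array stood at -0.29, against 0.02 for all genes tested. The remaining 3 arrays lay between -0.12 and -0.10.

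**Figure D1:**
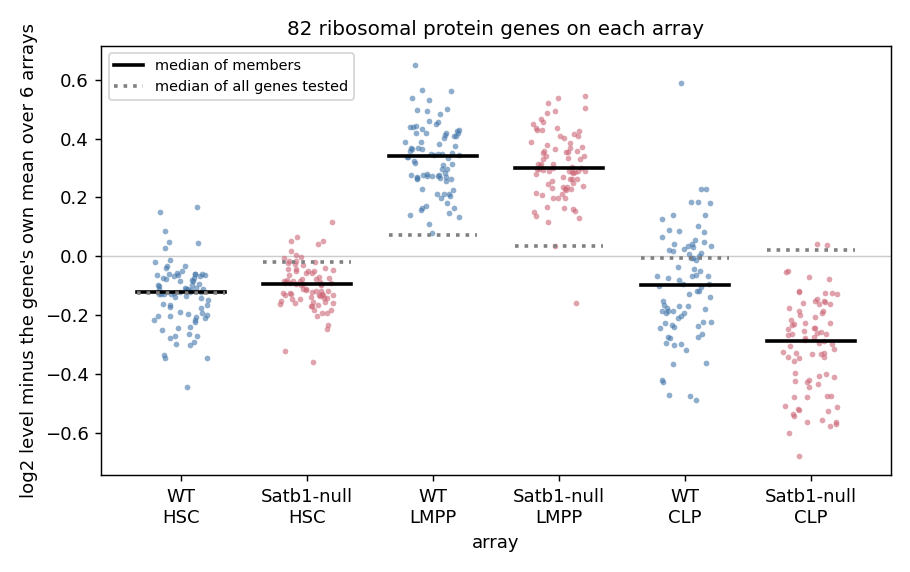
Each point is one of the 82 ribosomal protein genes tested, as its log2 level minus its own mean over the 6 arrays (vertical axis), on each array (horizontal axis); black lines are medians of these genes and dotted lines medians of all 13016 genes tested. The LMPP medians lie at 0.34 and 0.30 and the null CLP median at -0.29, while the medians of all genes lie between -0.13 and 0.07.

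LMPP carried more ribosomal protein mRNA, relative to each array's 75th percentile, than HSC for nearly every gene. All 82 genes were higher in the mean of both genotypes, 82 in wild type and 81 in null-labelled cells. The median difference was 0.44 on the log2 scale, 0.47 in wild type and 0.40 in null-labelled cells, and the median over all genes tested was 0.12. The 1226 brightest other genes had a median of 0.20. Both LMPP arrays were above both HSC arrays for 80 of the 82 genes (97.6%), which was so for 31.3% of all genes tested. Rps3 and Rpl10l, the latter near background, were the exceptions. The median stayed above 0 under every centring tried, between 0.21 and 0.62. Markers of other blood cells also differed between these populations. For LMPP minus HSC, 2 of 4 mast cell and eosinophil markers were past 2-fold lower and the other 2 above 0 (median of the list -2.01). Also past 2-fold lower were 4 of 9 erythroid, 3 of 9 granulocyte and monocyte, 1 of 8 megakaryocyte and 1 of 4 T lineage markers. Past 2-fold higher were 2 of 6 macrophage, 2 of 8 megakaryocyte, 1 of 8 B lineage and 1 of 5 hepatocyte markers. In these lists 0 were called by the limma fit. When the prior variance of the fit may depend on brightness, 2 mast cell and eosinophil markers were called lower. Their part in the result was not tested.

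No single gene passed the test. At an adjusted p under 0.05 (limma, Benjamini-Hochberg over 13016 genes), 0 of 82 ribosomal protein genes and 0% of all genes were called between LMPP and HSC in either direction. At an unadjusted p under 0.05, 2 of the 82 were higher (2.44%), below the background of 4.78%, and 0 lower (background 3.8%). With a prior variance that follows brightness (limma's trend) the adjusted count was again 0, where 0.0307% of all genes were higher and 0.0691% lower. Past 2-fold, 0 of the 82 were higher or lower, where 3.9% of all genes were in each direction. The counts and medians of the shift are descriptions without a test.

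Both subunits differed by about as much. The large subunit median was 0.43 (50 of 50 genes above 0) and the small subunit median 0.44 (32 of 32). Rps19, a small-subunit protein and the gene most often affected in Diamond-Blackfan anaemia, had the largest difference. Its wild type levels were 3.82 in HSC and 4.80 in LMPP and its null-labelled levels 4.09 and 4.62, a fitted difference of 0.76 (SE 0.29, limma adjusted p = 0.58). Rps27, a zinc-binding protein of the small subunit, went from 5.59 to 6.28 and from 5.78 to 6.48, a difference of 0.70 (SE 0.35). In both genes the LMPP arrays were clear of the HSC arrays.

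Rps27l, a p53-responsive relative of Rps27, read 1.32 (HSC) and 2.15 (LMPP) in wild type and 1.40 and 1.97 in null-labelled cells (difference 0.70, SE 0.25). Rpl19, at 0.68 (SE 0.26), Rpl37a, at 0.64 (SE 0.28), both large-subunit proteins, and Rps23, at 0.59 (SE 0.25), which lies at the decoding centre, followed. The smallest differences belonged to Rpl10l, which lay near background, and Rps3, both 0.07, Rpl7l1 (0.16), Rps24 (0.23) and Rpl13a (0.26). Rps3, a small-subunit protein at the mRNA entry, was nearly level by its brightest probe: 6.78 and 6.82 in wild type and 6.66 and 6.76 in null-labelled HSC and LMPP. The low rank of Rps3 and Rpl13a depends on the probe: the 2 Rps3 probes differed by 0.07 and 0.33, the 3 Rpl13a probes by 0.26 to 0.79.

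The stalk proteins shared the pattern. Rplp0 differed by 0.41 (SE 0.25), Rplp1 by 0.51 (SE 0.30) and Rplp2 by 0.46 (SE 0.26). Rplp0, for example, read 6.08 (HSC), 6.46 (LMPP) and 6.03 (CLP) in wild type and 6.05, 6.48 and 6.01 in null-labelled cells, so LMPP stood above both neighbours while HSC and CLP lay close together. Of the other genes tied to Diamond-Blackfan anaemia, Rps24 (0.23), Rps26 (0.40), Rpl5 (0.37), Rpl11 (0.42) and Rpl35a (0.51) were all higher in LMPP than in HSC, with SEs of 0.25 to 0.26. Rpl5 and Rpl11 are also the proteins that bind Mdm2 when ribosome assembly fails. Rps14, lost with part of a chromosome arm in a human myelodysplastic syndrome, differed by 0.51, and Rpl22, whose loss in mice stalls αβ T cells, by 0.51.

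From LMPP to CLP the direction turned. The median difference of the 82 genes was -0.55, with 81 below 0, against -0.06 for all genes tested and -0.01 for the 1226 brightest others, and it lay between -0.63 and -0.34 under the centrings tried. It was -0.45 in wild type and -0.59 in null-labelled cells. Both LMPP arrays were above both CLP arrays in 76 genes (92.7%), against 31.6% of all genes. Rpl10l, Rpl7l1, Rpl9, Rps29 and Rpsa were among the exceptions. Both LMPP arrays were above all other 4 in 75 genes (91.5%), against 14.8% of all genes. Within a genotype, LMPP was the highest of the 3 populations in 79 wild type genes (96.3%, background 38.5%) and 81 null-labelled ones (98.8%, background 33.8%).

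Again 0 of the 82 genes passed an adjusted p under 0.05 in the limma fit, where 3.95% of all genes were called lower and 4.76% higher in CLP than in LMPP. At an unadjusted p under 0.05, 19 were lower (23.2%, background 14.6%) and 0 higher (background 13.1%). The count depends on how limma sets the prior variance: with a variance that follows brightness, 37 genes (45.1%) were lower at an adjusted p under 0.05, against 7.81% of all genes, 22 of the large and 15 of the small subunit, and 0 were higher, against 8.1%.

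Rpl26, a large-subunit protein at the exit of the peptide tunnel, was furthest down and alone past 2-fold, where 13.7% of all genes were lower and 11.7% higher by that much. Its levels in HSC, LMPP and CLP were 4.90, 5.47 and 4.54 in wild type and 4.91, 5.40 and 4.23 in null-labelled cells. The fitted difference between CLP and LMPP was -1.05 (SE 0.26, limma adjusted p = 0.076). Both CLP arrays were the lowest of the 6.

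Rpl17, which also lines the tunnel exit, read 5.54, 5.93 and 4.96 in wild type and 5.30, 5.82 and 4.79 in null-labelled HSC, LMPP and CLP (CLP minus LMPP -0.999, SE 0.25, limma adjusted p = 0.077). Rps7, needed for the maturation of small-subunit RNA, read 4.59, 5.17 and 4.20, then 4.69, 5.13 and 4.25 (-0.92, SE 0.25, limma adjusted p = 0.091). In each of these genes CLP lay under HSC as well, with no overlap. With the brightness-dependent variance their adjusted p-values were 0.0074, 0.0060 and 0.010.

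Rps19 at -0.92, Rpl28 at -0.86 and Rpl7a at -0.86 came next. At the other end, Rpl10l (0.0021, near background), Rpl7l1 (-0.06), Rpl10 (-0.13), Rpsa (-0.13), Rpl13a (-0.16) and Rps27l (-0.18) differed least between CLP and LMPP. This ranking uses the brightest probes. The 4 Rpsa probes ran from -0.63 to -0.13, the 3 Rpl13a probes from -0.58 to -0.16 and the 3 Rpl10 probes from -0.22 to -0.04. Rpl10 is the protein whose loading completes the large subunit, and Rpsa doubles as a laminin receptor precursor. In null-labelled cells alone, 6 genes were past 2-fold lower, namely Rpl17, Rpl26, Rpl27a, Rpl28, Rps19 and Rps27, where 13.5% of all genes were; in wild type cells 0 were, against 18%.

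**Figure D2:**
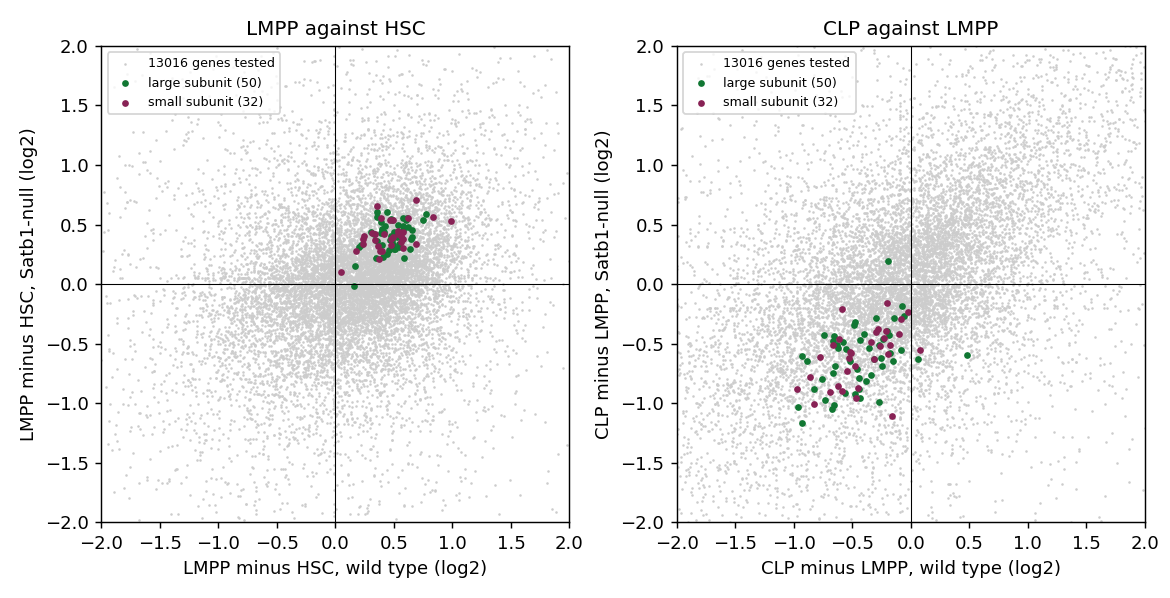
Each point is a gene, placed by its log2 difference between populations in wild type (horizontal) and Satb1-null (vertical) arrays; green and purple points are the large (50) and small (32) subunit genes and grey points all 13016 genes tested, cut off at 2 on each axis. The ribosomal protein genes sit in a tight group with medians of 0.47 and 0.40 for LMPP minus HSC, and in a wider group with medians of -0.45 and -0.59 for CLP minus LMPP.

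Marker sums of the erythroid, granulocyte and monocyte, mast cell and eosinophil, B lineage and macrophage lists were higher on both CLP arrays than on the other 4. Single markers went both ways in some lists. For CLP minus LMPP, 2 of 6 macrophage, 2 of 8 megakaryocyte, 1 of 8 B lineage, 2 of 5 hepatocyte and 2 of 4 T lineage markers were below 0. Of 9 erythroid markers tested, 6 were called higher in CLP than in LMPP (limma, adjusted p under 0.05), where 4.76% of all genes were. The summed linear level of this list was 859 and 888 in CLP, against 67.2 to 150 in the other 4 arrays. Of 9 granulocyte and monocyte markers 6 were called higher, with sums of 1274 and 1091 in CLP and 276 to 430 elsewhere. All 4 mast cell and eosinophil markers were called higher, with sums of 190 and 135 against 4.05 to 14.1. B lineage markers, 3 of 8 called higher, summed to 11.1 and 19.5 against 1.28 to 4.89. Macrophage markers (2 of 6 called) summed to 29.1 and 34.6 against 22.1 to 25.1, and megakaryocyte markers (1 of 8) to 70.7 and 47.3 against 39.1 to 57.0. Hepatocyte sums were 2.79 to 4.43 over all arrays, with 0 of 5 markers called, and T lineage sums 2.59 to 6.17, with 1 of 4. In bulk RNA, fewer cells of a type and less RNA per cell cannot be told apart, and the part of these cells in the lower ribosomal protein mRNA of CLP was not tested.

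Between CLP and HSC the genes split, and the split depended on the centring. The median was -0.08, with 29 genes above 0 and 53 below, against 0.02 for all genes, and it was 0.02 in wild type and -0.21 in null-labelled cells. Centring on each array's median turned it to 0.30, with 76 genes above 0, because that centring moved the median of all genes to 0.41; relative to all genes the median was -0.10 either way. In the limma fit 0 of 82 genes passed an adjusted p under 0.05, where 5.1% of all genes were higher and 3.59% lower. At an unadjusted p under 0.05 it was again 0 (background 15.9% higher and 12.2% lower), as with the brightness-dependent variance (9.84% and 5.69%) and past 2-fold (13.2% and 12.3%).

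Both CLP arrays were below both HSC arrays in 33 genes (40.2%, background 24.7%) and above them in 6 (7.32%, background 30.8%). Rpl10, Rpl13a, Rpl8, Rps27l and Rps28 were among the latter. The lowest fitted differences belonged to Rpl17 (-0.55, SE 0.25, its brightest probe), Rpl26 (-0.52, SE 0.26), Rps24 (-0.43), Rps7 (-0.42) and Rps3 (-0.40). The 2 Rps3 probes differed in sign, at -0.40 and 0.19. Rps27l was the highest, at 0.52 (SE 0.25, limma adjusted p = 0.26), with CLP levels of 1.95 and 1.81 above HSC levels of 1.32 and 1.40. Rps29 and Rpl9, both at 0.18, were next, and in each of them wild type CLP (7.73 and 7.28) was above both HSC arrays and null-labelled CLP was not above both.

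The comparison of genotypes asks which of these genes differ without Satb1. In HSC and LMPP the 82 genes barely differed, and in CLP most were slightly lower in the null-labelled array. The medians of null minus wild type were 0.04 in HSC, -0.01 in LMPP and -0.22 in CLP, beside 0.13, -0.04 and 0.03 for all genes tested. The HSC and LMPP medians changed sign with the centring, and the CLP median lay between -0.27 and -0.11 under all centrings tried. The error that the scanner files give for a difference between the 2 HSC arrays had a median of 0.20 for these genes. It was not computed for LMPP or CLP.

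In CLP, 70 of 82 genes (85.4%) were lower in the null-labelled array, against 48.2% of all genes, and in 51 genes (62.2%, background 20.7%) it was the lowest of the 6 arrays. In HSC 49 genes (59.8%) were higher, near the 60.6% of all genes, and in LMPP 49 (59.8%) were lower, near 54.3%. Genes lower in all 3 null-labelled arrays numbered 15 (18.3%, background 12.9%), and Rpl29 alone was higher in all 3 (1.22%, background 15.6%). Leaving out the wild type or the null-labelled CLP array gave the same fitted genotype median, -0.0020, with 39 genes above 0 and 43 below. The genotype difference then rests on the HSC and LMPP arrays alone, so this value cannot say which CLP array differs. The markers of other blood cells also differed between the 2 CLP arrays, as given above, and their part in the CLP difference was not tested.

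**Figure D3:**
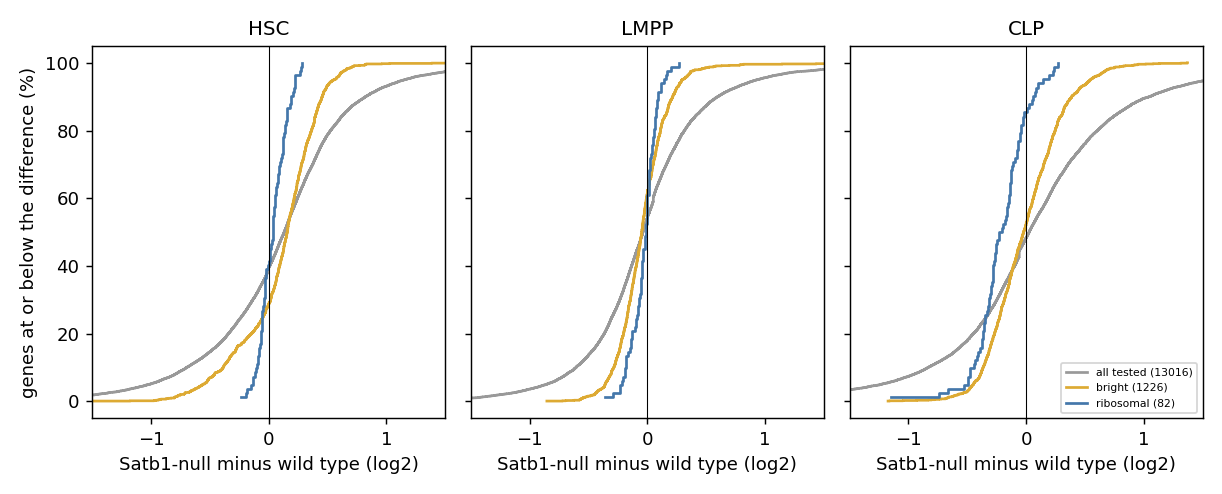
Each curve gives the percentage of genes (vertical axis) at or below a log2 difference of Satb1-null minus wild type (horizontal axis, cut off at 1.5), in HSC, LMPP and CLP; blue is the 82 ribosomal protein genes, yellow the 1226 brightest other genes and grey all 13016 genes tested. The blue curve is steep and near 0 in HSC (median 0.04) and LMPP (-0.01), medians whose sign changes with the centring, and lies to the left of 0 in CLP (-0.22).

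Rpl7l1, a relative of Rpl7 that is best known from the nucleolus, was the only gene past 2-fold between genotypes. In CLP 7.38% of all genes were lower and 10.5% higher by that much, in HSC 5.17% and 6.9%, and in LMPP 3.61% and 4.39%. It read -0.59, -0.42 and 0.06 in wild type and -0.65, -0.50 and -1.10 in null-labelled HSC, LMPP and CLP. Wild type CLP was the high array and null-labelled CLP the low one, a difference of -1.15, while in HSC and LMPP the genotypes lay close together. The fitted difference over all populations was -0.43 (SE 0.31, limma adjusted p = 0.84).

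Rps27, at 6.12 in wild type and 5.37 in null-labelled CLP, and Rplp1, at 6.73 and 6.07, followed with -0.74 and -0.66. The highest differences in CLP belonged to Rpl21 (0.27), Rpl3 (0.24) and Rpl24 (0.23). In HSC the range ran from Rpl17 (-0.24), Rpl35a (-0.19) and Rpl10l (-0.19, near background) to Rpl18 and Rps19 (0.27 each) and Rpl22l1 (0.28). In LMPP it ran from Rpl10l (-0.36, near background), Rplp2 (-0.30) and Rps6 (-0.24), the substrate of the S6 kinases, to Rpl9 (0.17), Rps27 (0.20) and Rps10 (0.27).

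In the limma fit over all populations, 0 of 82 genes were called between genotypes at an adjusted p under 0.05, where 0.00768% of all genes (1 gene) was higher and 0% lower; 0 of the 82 had an unadjusted p under 0.05, against 2.99% of all genes higher and 2.6% lower. After Rpl7l1 the lowest were Rpl35a (-0.24, SE 0.20), Rplp1 (-0.21), Rps3 (-0.18) and Rpl36a (-0.18), and the highest Rpl24 (0.11), Rpl29 (0.10), Rpl21 (0.09) and Rpl3 (0.07). Rpl35a, a large-subunit protein, was lower in each pair: 4.30 against 4.11 in HSC, 4.79 against 4.64 in LMPP and 4.56 against 4.18 in CLP.

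Where a gene has several probes, they mostly told the same story. Over 51 genes with 2 or more probes well above background on every array, the median range of fitted differences between probes was 0.07 for genotype, 0.11 for LMPP minus HSC, 0.22 for CLP minus LMPP and 0.18 for CLP minus HSC. No gene had probes more than 1 apart for genotype or LMPP minus HSC. For CLP minus LMPP there were 3 such genes, Rps24, Rpl17 and Rpl15, which were also so for CLP minus HSC.

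Rps24, a small-subunit protein and another Diamond-Blackfan gene, had by far the widest spread. Its 3 probes are named by different RefSeq transcripts of the gene, which is known to be spliced in alternative ways near its 3′ end. Where the probes lie within these transcripts was not mapped, and the part of splicing in their differences was not tested. The probe A_55_P1955243 (NM_011297) read 6.51 (HSC), 6.93 (LMPP) and 3.32 (CLP) in wild type and 6.50, 6.88 and 3.36 in null-labelled cells. Both CLP arrays were therefore far below the other 4, and the genotypes lay on top of each other in each population. In a limma fit with each probe on its own, this probe was lower in CLP than in LMPP by -3.57 (SE 0.24, adjusted p = 0.035) and than in HSC by -3.16 (adjusted p = 0.035).

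It was the only one of 171 ribosomal protein probes called in any contrast (0.585%), where 1.33% and 1.05% of all 30575 probes were called lower in these 2 contrasts. The other probes of the gene were also lower in CLP than in LMPP, by less. A_55_P1993880 (NM_207634) read 3.40, 3.89 and 3.48 in wild type and 3.35, 3.81 and 3.21 in null-labelled cells. A_55_P2032600 (NM_207635), the brightest and so the one that stands for the gene above, read 8.21, 8.39 and 7.94, then 8.18, 8.46 and 7.58. Their differences for CLP minus LMPP were -0.51 and -0.66, so the direction of the first probe was shared and its size was not.

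**Figure D4:**
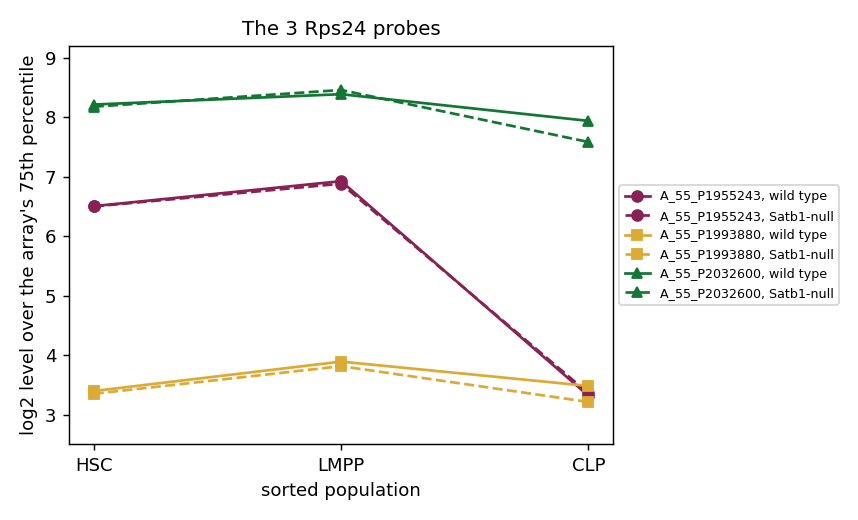
Log2 level over the array's 75th percentile (vertical axis) of the 3 Rps24 probes in HSC, LMPP and CLP (horizontal axis); colours and symbols mark probes, full lines wild type and broken lines Satb1-null arrays, 1 array per point. Probe A_55_P1955243 is near 6.5 to 6.9 in HSC and LMPP and near 3.3 in CLP in both genotypes, while the other probes differ by less than 0.9 across arrays.

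The 7 Rpl17 probes, all named by one transcript, differed between CLP and LMPP by -1.53 to -0.29 and the 2 Rpl15 probes by -1.39 and -0.32. For that contrast the direction was shared and the size was not. Between CLP and HSC the probes of these genes differed in sign, from -0.87 to 0.28 for Rpl17 and from -0.91 to 0.16 for Rpl15. One further probe was singled out after its values were seen. The second Rps2 probe, A_55_P2070347, read 4.52, 4.80 and 4.75 in wild type and 3.93, 4.24 and 3.92 in null-labelled HSC, LMPP and CLP, so all null-labelled arrays were below all wild type arrays. The limma fit gave it an unadjusted p of 0.027 and an adjusted p of 0.77, and the other Rps2 probe, A_55_P2048454, did not show it (5.24, 5.80 and 5.03 against 5.18, 5.59 and 4.97).

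Some ribosomal proteins have a second gene with a narrower range of tissues. Rpl3l, known from heart and skeletal muscle, was well above background on 1 array (null-labelled CLP, -3.67), and Rpl39l, known from testis, on 1 array (null-labelled LMPP, -2.89); neither was tested. Rpl10l, a testis relative of Rpl10, was above background on 5 arrays by one probe, at -3.77 to -3.41, and on none by its other probe. These genes were near background in all populations, so they show no level that could be followed.

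The parent genes were bright throughout and followed the common pattern. Rpl3 read 5.75, 6.23 and 5.50 in wild type and 5.79, 6.16 and 5.73 in null-labelled HSC, LMPP and CLP. Rpl22 read 4.81, 5.46 and 4.80, then 4.95, 5.32 and 4.88. Its relative Rpl22l1, which can take its place in the ribosome, read 2.89, 3.47 and 2.91, then 3.17, 3.39 and 2.48, so that both were highest in LMPP and Rpl22l1 was lowest in null-labelled CLP. Rpl7 differed by 0.46 between LMPP and HSC and by -0.44 between CLP and LMPP, and Rpl7l1 by 0.16 and -0.06. Rps27 fitted at -0.64 and Rps27l at -0.18 for CLP minus LMPP. None of these differences between relatives was tested.

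The X-linked members are Rpl10, Rpl36a, Rpl39 and Rps4x. Their fitted differences of null minus wild type were 0.00039, -0.18, -0.09 and -0.05, against a median of -0.07 over the 82 genes. Rps4x read 6.19, 6.43 and 6.22 in wild type and 6.11, 6.49 and 6.10 in null-labelled HSC, LMPP and CLP. Rpl39 read 5.89, 6.36 and 6.20, then 6.01, 6.41 and 5.76.

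Genes that make or use ribosomes were set beside these, as lists chosen with earlier results in view. The 4 ribosomal proteins outside the symbol rule followed the others: all 4 were higher in LMPP than in HSC (median 0.37) and lower in CLP than in LMPP (-0.42), with 0 called in either contrast. Translation elongation and initiation factors and other messages with a pyrimidine tract shared the direction at a smaller size. Of 27, 24 were above 0 for LMPP minus HSC (median 0.32) and 21 below 0 for CLP minus LMPP (-0.28), with 0 called. Eif3i (-1.18) and Eif4b (-1.03), both initiation factors, were the lowest in CLP and Pabpc4 (0.38), a poly(A)-binding protein, the highest.

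Ribosome biogenesis factors were lower in CLP than in LMPP in 50 of 52 genes, with a median of -0.64. One of the 52 was called, Nob1 (-1.28, limma adjusted p = 0.047), the nuclease that makes the final cut of small-subunit RNA. Most were also below 0 against HSC (45 of 52, median -0.33), as were 53 of the 82 ribosomal protein genes and 48.7% of all genes tested. Such counts depend on the centring: on each array's median, 76 of the 82 were above 0 and the median of all genes was 0.41. The biogenesis list is given under the 75th percentile centring only. Against HSC, Nop14 (-1.29, limma adjusted p = 0.048), a small-subunit assembly factor, was called. Of 10 RNA polymerase I genes, 9 were below 0 for CLP minus LMPP (median -0.70), and Polr1c, a subunit shared with RNA polymerase III, was called (-1.24, limma adjusted p = 0.049).

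Mitochondrial ribosomal proteins, a separate family, came close to the cytosolic ones: 73 of 77 were above 0 for LMPP minus HSC (median 0.40) and 64 below 0 for CLP minus LMPP (-0.36), with 0 called. Of 16 proliferation genes, 14 were above 0 for LMPP minus HSC (median 0.37), the direction of the ribosomal protein genes, and from LMPP to CLP the directions differed. All 16 were above 0 for CLP minus LMPP (median 0.64), and Rrm2, which makes deoxynucleotides, was called (2.17, limma adjusted p = 0.020); against HSC, Rrm2, Ccnb1 and Plk1 were called higher. The 20 regulators of pyrimidine-tract messages had a median of 0.02 for CLP minus LMPP. Tsc2, an inhibitor of mTOR, was called lower (-2.30, limma adjusted p = 0.028), and Larp4b, an RNA-binding protein, was called higher against HSC (1.37, limma adjusted p = 0.044).

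Of 11 p53 and nucleolar stress genes, Cdkn1a (-2.20, limma adjusted p = 0.017) and Phlda3 (-2.50, limma adjusted p = 0.030), both p53 targets, were called lower in CLP than in LMPP, and Pmaip1, a p53 target that promotes cell death, was called higher against HSC (2.26, limma adjusted p = 0.021). Cdkn1a (-2.26, limma adjusted p = 0.017) and Phlda3 (-2.71, limma adjusted p = 0.029) were also called lower against HSC. None of the genes in these 8 lists was called for LMPP minus HSC or between genotypes. The shares of all genes called are those given with the contrasts above.

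**Figure D5:**
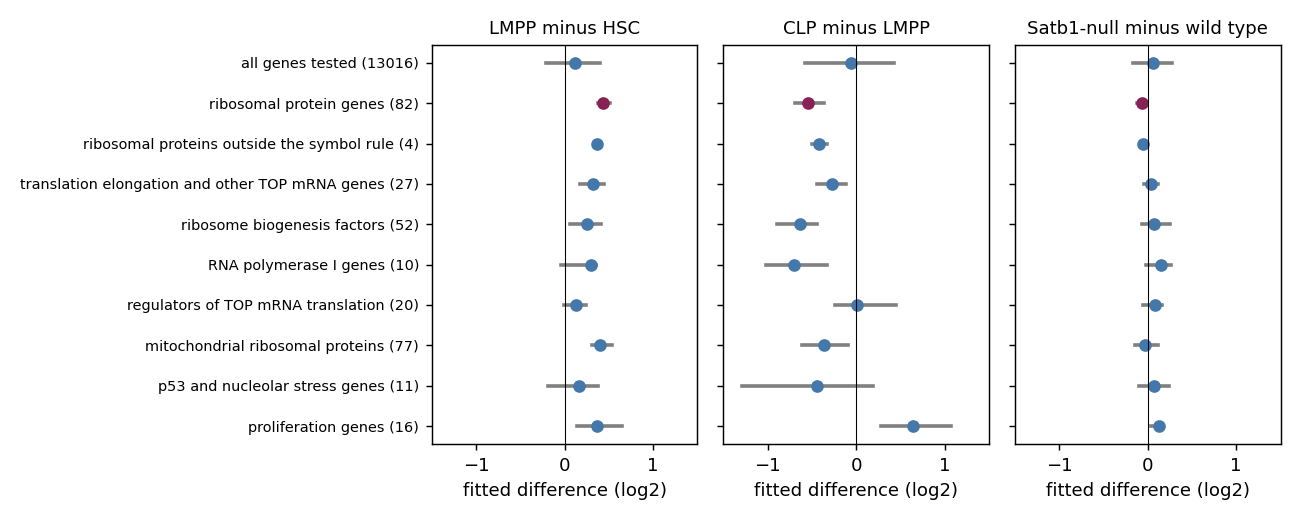
Points are the medians and bars the middle 50% of fitted log2 differences (horizontal axis) of each gene list (vertical axis, number tested in brackets) for LMPP minus HSC, CLP minus LMPP and Satb1-null minus wild type. The 82 ribosomal protein genes have a narrow bar at 0.44, -0.55 and -0.07; proliferation genes lie at 0.64 for CLP minus LMPP and all genes tested at -0.06.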

How the data were processed

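Each of 6 groups had 1 array. The authors deposited Agilent Feature Extraction scanner files (version 10.10 per the submitters' processing notes, 10.10.1.1 per the file headers) whose processed signal is an intensity, background-subtracted per the file headers. The deposited value table held this intensity times a constant per array, within 0.1%, so its scale is linear. RNA input was 6.1 ng, amplified before labelling, per the labels' protocols, which limits precision together with the single array per group.

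From these, log2 of the processed signal was centred on each array's 75th percentile over 55681 non-control probes, outlier spots were left out and spots of a probe averaged. Of the probes, 27235 carried a gene name and 28446 did not. A floor, each array's lowest signal well above background, replaced dimmer values. A gene took its brightest probe and was tested if above background on 3 arrays. limma 3.58.1 in R 4.3.3 fitted genotype plus population, with Benjamini-Hochberg adjustment at 0.05, and the fit was tested on simulated data. Planned normexp on the mean signal was run on the median signal (offset 50), since the files hold no mean signal column. Promoter letters were searched in Python 3.11.15.

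The members and lists were chosen with earlier results of these data known. Named genes were those called in each contrast, the 5 highest and 5 lowest fitted differences per contrast, the 3 highest and 3 lowest and any past 2-fold between genotypes per population, pairs of related genes, X-linked genes, stalk and Diamond-Blackfan genes with Rpl22 and Rps14, genes whose probes differ by more than 1, and genes not above background on some array. Of the lists, called genes (up to 4 each way) or the extremes were named. Alternatives covered centring, background, filter, probe choice, prior variance, threshold and leaving out each array. A few genes that these rules would name are not reported here.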

Additional observations from a re-analysis of the deposited data

Results flagged for a closer look

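Several differences between genotypes pointed one way in one population and the other way in another. None of these differences between populations was tested, since each rests on 4 arrays without replicates. The median over the 82 ribosomal protein genes was 0.037 in HSC and -0.215 in CLP for Satb1-null minus wild type, and the HSC value changes sign with the centring.

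For single genes, the values below exceed on both sides the median scanner error of 0.204, which was taken from the 2 HSC arrays. That error is technical and holds no variation between cell samples or amplifications, and 40.6% of all genes tested had opposite signs in a pair of populations past it. Rps19 was 0.27 higher in null-labelled HSC and stood at -0.36 in CLP. Rpl22l1 had 0.28 in HSC and -0.43 in CLP. Rpl37, a zinc-binding large-subunit protein, had 0.22 and -0.32, and Rpl38, whose loss in mice alters the skeleton, had 0.23 and -0.23. Rps16, a small-subunit protein, had 0.22 and -0.37. Rps10, a protein at the head of the small subunit, had 0.27 in LMPP and -0.23 in CLP. These 6 genes were picked out of 82 by size.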

How the results depend on the processing

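The results that depend on the processing are mainly those of the centring and of the prior variance. Of the medians and counts under alternatives, 239 kept their direction and side of the threshold, 25 moved and 8 reversed; of the named genes' values 174 kept them and 6 came to pass the threshold. The number of ribosomal protein genes called between CLP and LMPP was 0 (of all genes 1133), and 4 with normexp (2029), 1 with the mean over probes (1230), 37 with the brightness-dependent variance (2071), 1 probe with every probe fitted (898 probes) and 3 at an adjusted p under 0.1 (2161); between CLP and HSC it was 1 with the mean over probes (1234) and 1 probe with every probe (687). The single gene or probe was Rps24 each time. Without any one array, 0 ribosomal protein genes were called; without an HSC or LMPP array 0 of all genes were called between CLP and LMPP or HSC either, so those fits say nothing about stability, and without the wild type or null-labelled CLP array 978 and 1613 of all genes were called between CLP and LMPP. The median for LMPP minus HSC was 0.291 with the percentile over probes above background on all arrays, 0.616 with median centring and 0.208 with quantile normalization. For CLP minus LMPP it was -0.340 with median centring and -0.393 with quantile normalization, and for CLP minus HSC -0.311 with the detected-probe percentile and 0.305 with median centring. For null minus wild type it was -0.099 and 0.217 in HSC with these 2 centrings, and in LMPP 0.035 with the detected-probe percentile and 0.031 with quantile normalization. Less the median of all genes, HSC null minus wild type was 0.0068 with normexp and 0.043 without the filter, LMPP -0.064 without it, LMPP minus HSC 0.151 with quantile normalization and 0.416 without the filter, and CLP minus HSC 0.044 without it. Past 2-fold, 0 ribosomal protein genes were lower in null-labelled CLP with normexp (2.93% of all genes). For CLP minus LMPP, 4 were lower with the detected-probe percentile (15.4%), 0 with median centring (10.4%) and 6 with the mean over probes (14%). For CLP minus HSC, 1 was lower with the mean over probes (12.5%). Past 1.5-fold, 3 were lower in null-labelled CLP (15.3% of all genes), 6 higher for LMPP minus HSC (13.2%) and 32 lower for CLP minus LMPP (24.6%). Rpl26, Rpl17 and Rps7 passed the threshold for CLP minus LMPP with normexp (-1.04, -0.94 and -0.86) and with the brightness-dependent variance. The cause of these moves was not tested beyond the shift that each centring gives all genes. No paired analysis was possible because each group has 1 array and no replicate numbers.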
